A study of Mus musculus with 12 samples.

Results

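The 10 CXC chemokine genes Cxcl1, Cxcl2, Cxcl3, Cxcl5, Cxcl9, Cxcl10, Cxcl11, Cxcl16, Pf4 and Ppbp were taken by symbol from the 38739 genes of the expression table, and all 10 of them passed the filter on low values that kept 11887 genes. Cxcl5 reached the filter in 4 LPS samples and Cxcl9 and Cxcl11 in the 6 LPS samples only, so that a rise of these 3 with LPS was close to given by the filter. Bone marrow-derived macrophages (BMDMs), which are bone marrow cells grown into macrophages in culture, came from wild-type (WT) C57BL/6J mice or from mice of that background that lack cGAS, the cytosolic DNA sensor, in every cell (cGAS-/-). The mice were young adult males per the study's methods. RNA-seq was performed in 12 samples, 3 each of WT untreated (UT, media control), WT with lipopolysaccharide (LPS) of E. coli 026:B6, cGAS-/- UT and cGAS-/- with LPS. The labels give LPS at 100 ng/mL for 1 h, whereas the methods give a higher dose and a full day, so the time point of these values is uncertain. The WT mice were bought and the cGAS-/- line came from another laboratory, so genotype and colony cannot be told apart. According to the study, samples within a group are technical replicates, and p-values then measure only the spread between these samples.

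CXC chemokines are small secreted proteins that guide leukocytes through G protein-coupled receptors. The ligands Cxcl1, Cxcl2, Cxcl3 and Cxcl5 act on Cxcr2 and draw neutrophils, and macrophages transcribe them through NF-kB after Toll-like receptor 4 senses LPS. The ligands Cxcl9, Cxcl10 and Cxcl11 act on Cxcr3, draw activated T cells and NK cells, and are induced by interferons. Pf4 and Ppbp are best known from platelet granules, and Cxcl16 is a membrane-bound ligand of Cxcr6 that can be shed. The comparisons asked how LPS and the loss of cGAS, which feeds type I interferon production, moved the neutrophil-attracting against the interferon-driven members.

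In the GRCm39 annotation, Cxcl5, Ppbp, Pf4, Cxcl3, Cxcl1 and Cxcl2 lay in this order on the plus strand within 146.6 kb of chromosome 5 (chr5:90907186-91053797). Cxcl9, Cxcl10 and Cxcl11 lay on the minus strand 1.42 Mb further on, within 44.1 kb (chr5:92469206-92513344), and Cxcl16 lay on the minus strand of chromosome 11 (chr11:70344517-70352620). Each is a protein-coding gene. The 250 bases before the start of each gene's canonical GENCODE transcript were searched on both strands for the NF-kB consensus and for the core of the interferon-stimulated response element (ISRE), spelled as GAAA, 2 bases of any kind and GAAA. The NF-kB consensus was found in 5 of the 10 members and in 7.63% of 21738 promoters of the same length, and the ISRE core in 1 member and in 3.33% of promoters. All 4 neutrophil-attracting members held the same 11 bases, which the NF-kB consensus matched on both strands in overlapping positions. Their windows are shown because all 4 promoters hold this run of bases, with these bases in capitals and positions counted back from the canonical start. Other bases that the 4 promoters share were not searched for. For Cxcl5, Cxcl16 and Pf4 that start lies inside the span of the gene, because another transcript starts further upstream.
Cxcl1 (chr5:91039023-91039053, plus strand, -71 to -41): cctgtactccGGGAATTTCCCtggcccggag
Cxcl2 (chr5:91051651-91051681, plus strand, -79 to -49): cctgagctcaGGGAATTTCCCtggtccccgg
Cxcl3 (chr5:90933877-90933907, plus strand, -85 to -55): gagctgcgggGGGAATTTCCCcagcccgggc
Cxcl5 (chr5:90907119-90907149, plus strand, -118 to -88): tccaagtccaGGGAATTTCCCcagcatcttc

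Of the interferon-driven members, only Cxcl10 held a match. Its 250 bases are shown because they hold both motifs, with the ISRE core as the first run of capitals and NF-kB consensus matches as the later runs, the last of them covering a pair of overlapping matches.
Cxcl10 (chr5:92496749-92496998, minus strand): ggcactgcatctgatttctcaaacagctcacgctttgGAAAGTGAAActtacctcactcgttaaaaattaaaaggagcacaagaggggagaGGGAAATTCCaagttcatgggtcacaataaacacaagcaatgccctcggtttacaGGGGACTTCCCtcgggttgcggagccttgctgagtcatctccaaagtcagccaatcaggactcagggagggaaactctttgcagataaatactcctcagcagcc
No match was found in the windows of Cxcl9, Cxcl11, Cxcl16, Pf4 and Ppbp, which says only that these letters are not within them.

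Values are TPM, a transcript abundance scaled for length and library size, which the authors deposited and which appear to be averaged over the transcripts of each symbol, so the levels of different members were not compared with each other. The read depth behind them is unknown. Cxcl2 and Cxcl3 share 561 bases at 90% identity, and exons on the opposite strand overlap Cxcl5, Cxcl10, Cxcl11 and Cxcl16, so reads of these genes may be split or shared. Summed over genes, 11 of the samples held 447189 to 503156 TPM. WT LPS replicate 3 stood apart with 709802 TPM, of which 31.7% fell to Fth-ps3, a ferritin pseudogene, against 6.24% to 17.7% elsewhere. For the main results, values without this sample are given beside those with it. Cgas was at 1.19 to 3.25 TPM in WT and at 0.0703 to 0.291 TPM in cGAS-/- BMDMs. The extraction step of the labels names neutrophils. Of 10 macrophage markers 7 were listed, none of them at 0 throughout a group, and they summed to between 16689 and 34085 TPM in a sample. Nearly all of this sum was Lyz2, which neutrophils express too. Of the others, Cd68 averaged 236 to 1026 TPM over the groups, Fcgr1 62.4 to 461 TPM, Mrc1 0.938 to 80.9 TPM and Cx3cr1 0.415 to 17.8 TPM. In UT samples Cx3cr1 was called higher and Mrc1 lower in cGAS-/-, as they were with LPS, when Lyz2 was called higher too, which makes 3 of 7 against 2.36% of all genes. Cd68 was not called with LPS, but was lower in cGAS-/- without replicate 3 of WT LPS (-0.96, limma adjusted p = 3.05e-04). Their part in the chemokine differences was not tested. The 9 of 12 neutrophil markers listed summed to 59.7 to 374 TPM. Tests were made with limma on log2(TPM + 1), so that fold changes of low genes are understated, and the p-values were adjusted over all 11887 genes by Benjamini-Hochberg, with calls made under 0.05. In bulk RNA, fewer cells of a type and less RNA per cell cannot be told apart.

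In WT BMDMs, LPS raised 3 of the 4 neutrophil-attracting and all 3 interferon-driven members, with the larger median on this scale in the latter. The rises of the classes were not tested against each other. Of the 10 members, 7 were called higher and 0 lower, whereas 4.31% of all genes tested were called higher, 23.3% lower and 27.6% in either direction. The 7 were Cxcl1, Cxcl2, Cxcl3, Cxcl9, Cxcl10, Cxcl11 and Cxcl16, and at each of them the LPS samples lay above the UT samples without overlap, as groups did not overlap at 38.2% of all genes. The median log2 fold change was 2.43 over the 4 neutrophil-attracting and 4.10 over the 3 interferon-driven members, against -0.46 over all genes (-0.05 after scaling with TMM factors, which left the 7 calls in place). The medians were 3.21, 4.72 and -0.29 without replicate 3 of WT LPS.

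**Figure D1:**
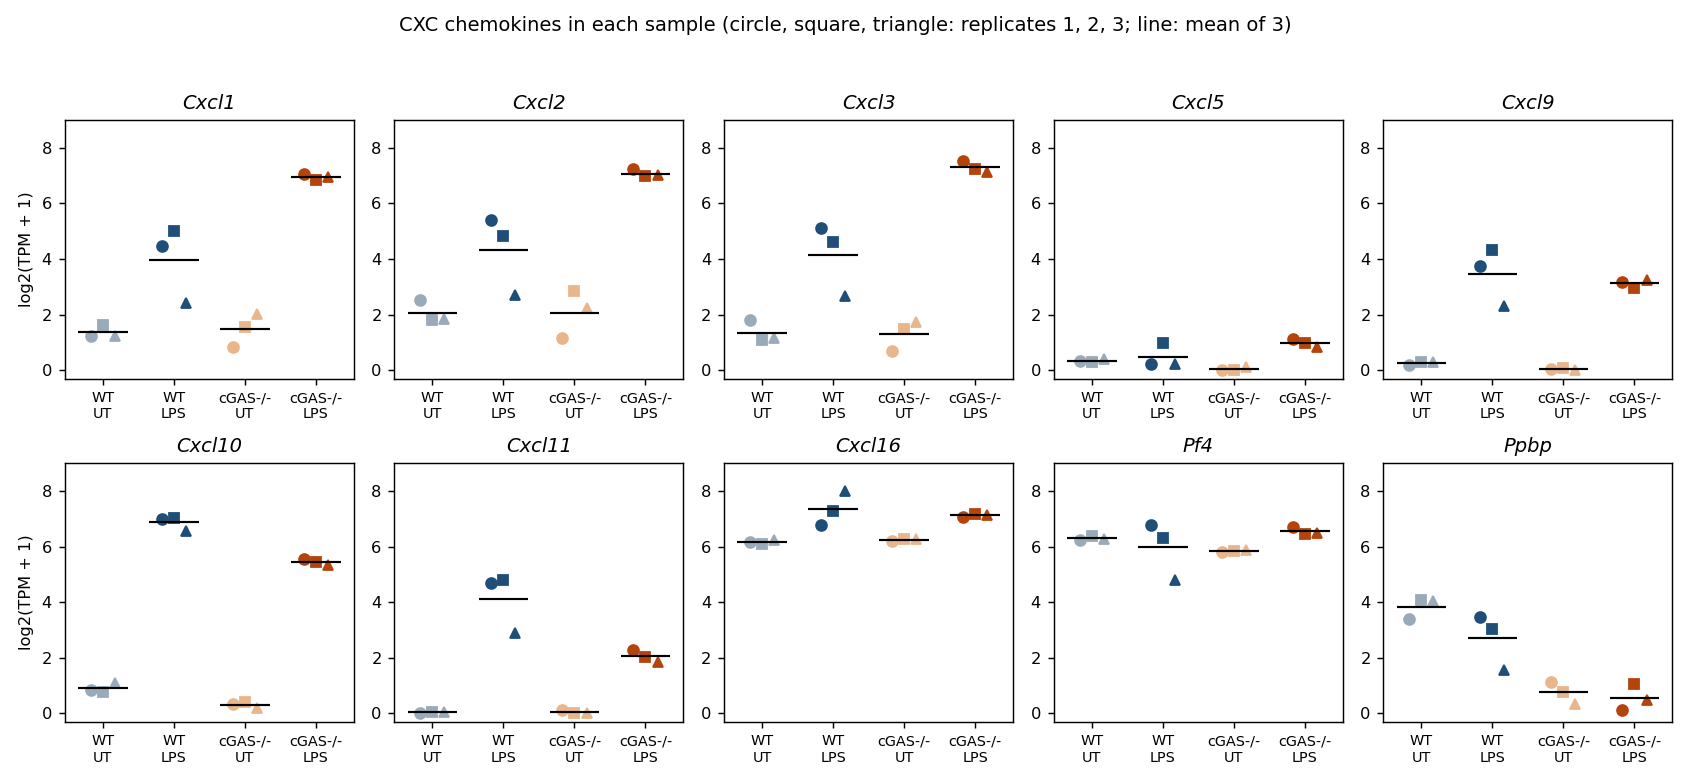
Level of each CXC chemokine, as log2(TPM + 1), in each of the 12 samples by group, with circles, squares and triangles for replicates 1, 2 and 3 and a line at the mean of 3. Cxcl1, Cxcl2 and Cxcl3 were highest in the cGAS-/- LPS samples and Cxcl10 and Cxcl11 in the WT LPS samples, while Ppbp was higher in WT than in cGAS-/- samples with and without LPS.

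Cxcl10, the T cell-attracting chemokine most used as a readout of interferon, was at 0.781, 0.717 and 1.12 TPM in the UT samples (replicates 1 to 3) and at 127, 131 and 93.8 TPM with LPS. It rose by 5.97 on the log2 scale (SE 0.21, limma adjusted p = 1.37e-07), and its 3 LPS samples were close to one another. Cxcl11 was at 0, 0.0463 and 0.0296 TPM in UT and at 25.1, 27.1 and 6.36 TPM with LPS, a log2 fold change of 4.10 (SE 0.41, adjusted p = 5.14e-05). Cxcl9 was at 0.135, 0.239 and 0.219 TPM in UT and at 12.4, 18.8 and 3.97 TPM with LPS, a log2 fold change of 3.20 (SE 0.39, adjusted p = 2.12e-04). In replicate 3 with LPS both were well below the other LPS samples and far above all UT samples, and without it the changes were 4.72 for Cxcl11 and 3.77 for Cxcl9. Cxcl1, Cxcl2 and Cxcl3 were also lowest in replicate 3 with LPS, where Cxcl2 was only just above the highest UT sample. Cxcl1 was at 1.35, 2.10 and 1.35 TPM in UT and at 21.0, 30.9 and 4.40 TPM with LPS, Cxcl2 at 4.75, 2.50 and 2.59 against 41.3, 27.5 and 5.51 TPM, and Cxcl3 at 2.49, 1.12 and 1.24 against 33.3, 23.6 and 5.31 TPM. Their log2 fold changes were 2.60, 2.25 and 2.78, with limma adjusted p of 0.00608, 0.0215 and 0.00396. Without replicate 3 of WT LPS the 3 rises were larger, at 3.36, 3.06 and 3.51. When only the 6 WT samples were fitted, Cxcl1, Cxcl2, Cxcl3 and Cxcl16 lost their calls, with limma adjusted p of 0.0664, 0.112, 0.0542 and 0.156, and the 3 interferon-driven members kept theirs. The call of Cxcl2 was also lost without replicate 1 of WT LPS, without replicate 2 or replicate 3 of WT UT and without the filter, with adjusted p between 4.49e-04 and 0.112 over its alternatives.

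Cxcl16 was well expressed before stimulation, at 71.1, 68.0 and 74.3 TPM, and lay at 108, 153 and 258 TPM with LPS. It rose by 1.18 (SE 0.29, limma adjusted p = 0.0129), and here replicate 3 was the highest of the LPS samples, so that the rise was 0.84 without it. Cxcl5, at 0.241 to 0.308 TPM in UT and 0.156 to 0.984 TPM with LPS, was near the lower end of what was tested and was not called. Pf4 lay at 74.1 to 82.1 TPM in UT and at 110, 79.3 and 26.8 TPM with LPS, on both sides of the UT level. Ppbp lay at 9.62 to 15.7 TPM in UT and at 10.1, 7.29 and 1.97 TPM with LPS, a log2 fold change of -1.14 that did not pass the test (adjusted p = 0.0797). Without replicate 3 of WT LPS the change was -0.58. Ppbp was called lower without replicate 1 of WT LPS and with a pseudocount of 5.

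In cGAS-/- BMDMs the larger rises on this scale were those of Cxcl1, Cxcl2, Cxcl3 and Cxcl10, and the mean rise was larger in the neutrophil-attracting class with a pseudocount of 1 but smaller with a pseudocount of 0.1. LPS raised 7 of the 10 members and lowered 0, against 4.76% of all genes called higher, 9.06% lower and 13.8% in either direction. The 7 were the 4 neutrophil-attracting and the 3 interferon-driven members. The median log2 fold change was 5.24 over the former and 3.08 over the latter, against -0.20 over all genes (-0.0048 with TMM factors). The groups did not overlap at 9 of the 10 members, Ppbp being the exception, and at 55.7% of all genes.

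Cxcl3 was at 0.601, 1.81 and 2.33 TPM in the cGAS-/- UT samples and at 182, 149 and 141 TPM with LPS, a log2 fold change of 6.0 (SE 0.54, limma adjusted p = 2.79e-05). Cxcl1 was at 0.793, 1.93 and 3.03 TPM and reached 133, 114 and 123 TPM, a log2 fold change of 5.49 (SE 0.55, adjusted p = 5.96e-05). Cxcl2 was at 1.24, 6.15 and 3.66 TPM and reached 149, 125 and 128 TPM, a log2 fold change of 5.00 (SE 0.62, adjusted p = 2.57e-04). The 3 LPS samples of these genes lay close together and far above every UT sample, whereas the UT samples differed several-fold among themselves. Cxcl5 was listed at 0 in replicates 1 and 2 and at 0.0896 TPM in replicate 3 of UT, and lay at 1.18, 0.979 and 0.774 TPM with LPS. It rose by 0.94 (SE 0.20, adjusted p = 0.00988), a small value on this scale because its level stayed near 1 TPM. Cxcl10 was at 0.271, 0.330 and 0.138 TPM in UT and at 45.7, 42.1 and 39.7 TPM with LPS, a log2 fold change of 5.13 (SE 0.21, adjusted p = 1.8e-07). Cxcl9 rose from between 0 and 0.0637 TPM to 8.01, 6.75 and 8.56 TPM, by 3.08 (SE 0.39, adjusted p = 2.97e-04). Cxcl11 rose from between 0 and 0.0814 TPM to 3.82, 3.07 and 2.64 TPM, by 2.02 (SE 0.41, adjusted p = 0.00668), a call that was lost with a pseudocount of 5. Each of the 3 interferon-driven members was therefore higher in every LPS sample than in any UT sample of cells that lack cGAS. Cxcl16 lay at 73.0, 75.9 and 75.6 TPM in UT and at 134, 142 and 139 TPM with LPS, tight groups that did not overlap. Its log2 fold change of 0.88 missed the threshold (SE 0.29, adjusted p = 0.0702) and passed it without replicate 3 of WT LPS, which enters the shared spread (adjusted p = 3.68e-04). The same held for Pf4, at 55.5, 56.9 and 57.9 TPM in UT and 105, 87.0 and 88.8 TPM with LPS, whose log2 fold change was 0.70 with adjusted p of 0.336 with and 0.00208 without that sample.

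**Figure D2:**
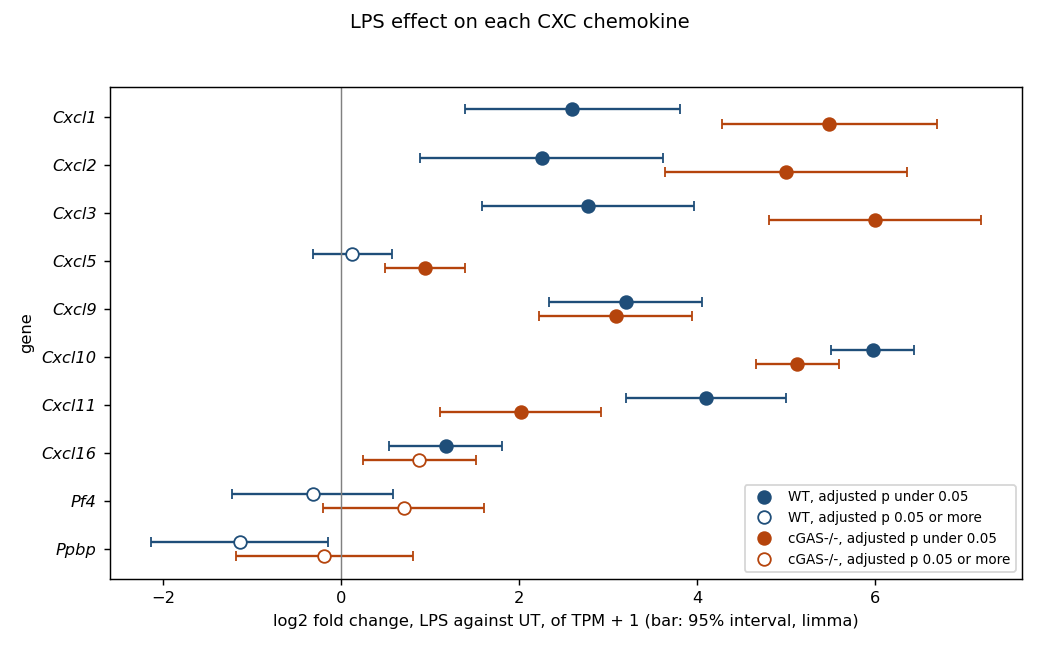
Log2 fold change of TPM + 1 with LPS against UT for each member in WT and cGAS-/- BMDMs, with 95% intervals from limma and filled points for an adjusted p under 0.05. The points for Cxcl1, Cxcl2 and Cxcl3 lay further right in cGAS-/- and those for Cxcl10 and Cxcl11 in WT, while those for Cxcl9 lay at 3.20 and 3.08.

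Between genotypes with LPS, the classes separated. In cGAS-/- BMDMs, 3 of the 4 neutrophil-attracting members were higher and 2 of the 3 interferon-driven members were lower, together with Ppbp. These 6 of 10 members compare with 2.36% of all genes called, 1.36% higher and 1.00% lower. At these 6 members the 3 samples of one genotype lay beyond the 3 of the other, as they did at 17.7% of all genes. The median log2 fold change was 2.87 over the neutrophil-attracting and -1.43 over the interferon-driven members, against 0.20 over all genes (0.03 with TMM factors). The medians were 2.09, -1.58 and 0.04 without replicate 3 of WT LPS. Calls and directions of these 6 members were the same under TMM scaling and under quantile normalization.

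The mean of the LPS samples was 6.56-fold higher in cGAS-/- than in WT for Cxcl1, 5.40-fold for Cxcl2 and 7.59-fold for Cxcl3. With each LPS sample left out in turn these ratios ran from 4.75 to 9.71, from 3.89 to 8.12 and from 5.53 to 10.9, and 8.12 for Cxcl2 was the value without replicate 1 of WT. The lowest cGAS-/- sample, at 114, 125 and 141 TPM for the 3 genes, lay above the highest WT sample, at 30.9, 41.3 and 33.3 TPM. The log2 fold changes were 2.99 (SE 0.55, limma adjusted p = 0.0181), 2.76 (SE 0.62, adjusted p = 0.0458) and 3.17 (SE 0.54, adjusted p = 0.0126). Without replicate 3 of WT LPS, the lowest of the WT samples for each gene, the differences were 2.23, 1.95 and 2.44, with adjusted p of 0.00204, 0.0206 and 0.00174. Cxcl5 lay at 0.774 to 1.18 TPM in cGAS-/- and at 0.156 to 0.984 TPM in WT, so the groups overlapped, and its difference of 0.51 did not pass (adjusted p = 0.223).

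Cxcl10 was 2.76-fold lower in cGAS-/-, with all samples between 39.7 and 45.7 TPM against 93.8 to 131 TPM in WT (log2 fold change -1.43, SE 0.21, limma adjusted p = 0.00582). Cxcl11 was 6.14-fold lower, at 2.64 to 3.82 TPM against 6.36 to 27.1 TPM (log2 fold change -2.08, SE 0.41, adjusted p = 0.0249). Without replicate 3 of WT LPS the differences were -1.58 and -2.71. Cxcl9 did not follow them: its cGAS-/- samples, at 6.75 to 8.56 TPM, lay within the range of the WT samples, at 3.97 to 18.8 TPM. Its difference was -0.33 (95% interval -1.19 to 0.53, adjusted p = 0.639), and without replicate 3 of WT LPS it was -0.90 and passed (adjusted p = 0.0112). Cxcl16, at 134 to 142 against 108 to 258 TPM, and Pf4, at 87.0 to 105 against 26.8 to 110 TPM, were not called either. The 95% interval of the difference was -0.86 to 0.41 for Cxcl16 and -0.32 to 1.49 for Pf4.

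**Figure D3:**
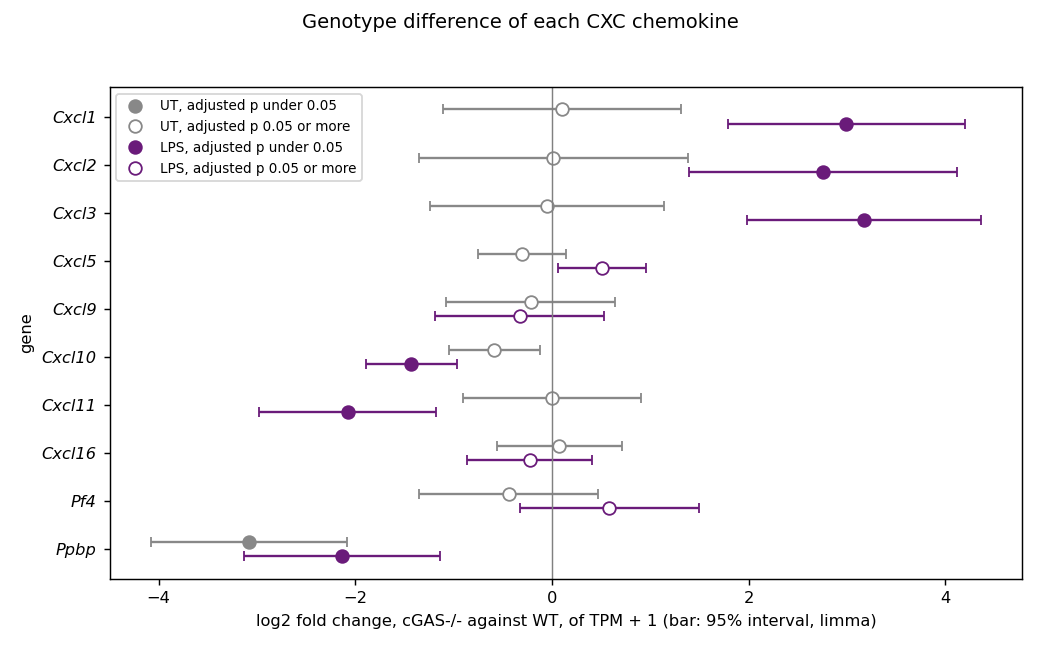
Log2 fold change of TPM + 1 in cGAS-/- against WT BMDMs for each member, in UT samples and with LPS, with 95% intervals from limma and filled points for an adjusted p under 0.05. With LPS, Cxcl1, Cxcl2 and Cxcl3 lay between 2.76 and 3.17 and Cxcl10 and Cxcl11 at -1.43 and -2.08, and in UT samples only Ppbp was called.

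The calls between genotypes with LPS depended on the samples used. Of the 10 members, 1 was called without any one of the cGAS-/- LPS replicates, against 0.648% to 0.799% of all genes, and in each case it was Cxcl10. The count was 3 without replicate 3 of WT UT (1.42% of all genes) and 4 without replicate 1 or 2 of WT UT or any one of the cGAS-/- UT replicates (1.46% to 1.57%) or replicate 1 of WT LPS (2.97%). It was 7 without replicate 3 of WT LPS, where 8.28% of all genes were called, and 7 without replicate 2, where 27.9% of all genes were called. Over these and the other alternatives the adjusted p ranged from 8.78e-05 to 0.290 for Cxcl10, from 5.72e-06 to 0.423 for Cxcl11, from 0.00204 to 0.305 for Cxcl1, from 0.0146 to 0.364 for Cxcl2 and from 0.00174 to 0.269 for Cxcl3. The direction was the same in every one of these fits for each of the 5 genes. When only the 6 LPS samples were fitted, 0 members and 5 genes in all were called.

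The ratio of a pair of members within a sample does not depend on the scaling of that sample. The ratio of Cxcl2 to Cxcl10 TPM with LPS was 0.325, 0.210 and 0.0588 in WT and 3.25, 2.97 and 3.22 in cGAS-/-, so the lowest cGAS-/- sample was above the highest WT sample. In UT samples, where Cxcl10 was near or under 1 TPM, the ratio was 6.09, 3.49 and 2.30 in WT and 4.56, 18.6 and 26.5 in cGAS-/-, and the genotypes overlapped. For this ratio the LPS samples lay below the UT samples in both genotypes, without overlap. The ratios of Cxcl1 and Cxcl3 to Cxcl10 did so in WT, but overlapped in cGAS-/-. There the Cxcl1 ratio was 2.71 to 3.09 with LPS and 2.92 to 22.0 in UT. The Cxcl3 ratio was 3.54 to 3.99 with LPS and 2.21 to 16.9 in UT. The mean log2(TPM + 1) of the 4 neutrophil-attracting members minus that of the 3 interferon-driven members gave the same picture for the LPS samples, at -1.92 to -1.36 in WT and 1.99 to 2.07 in cGAS-/-. In UT samples this difference was 0.68 to 1.14 in WT and 0.50 to 1.46 in cGAS-/-. The genotypes differed in it by 3.64 with LPS, and by 3.48 without replicate 3 of WT LPS. In UT they differed by 0.21, a value that rested on single samples: it was 0.33 without replicate 1 of WT, 0.11 without replicate 3 of WT, and 0.50, 0.10 and 0.0215 without replicates 1, 2 and 3 of cGAS-/-. Unlike the ratio, this measure moves with the scaling, and with LPS it was 3.73 under TMM factors.

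**Figure D4:**
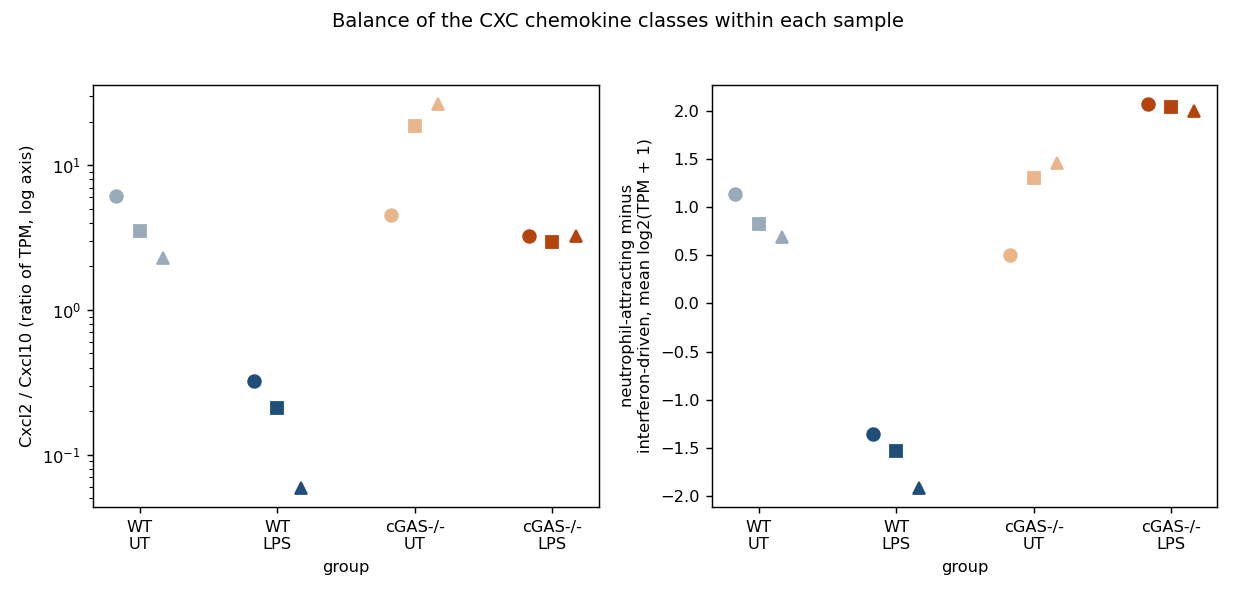
Left, ratio of Cxcl2 to Cxcl10 TPM in each sample on a log axis, and right, mean log2(TPM + 1) of Cxcl1, Cxcl2, Cxcl3 and Cxcl5 minus that of Cxcl9, Cxcl10 and Cxcl11, with circles, squares and triangles for replicates 1, 2 and 3. With LPS the WT samples lay at ratios of 0.0588 to 0.325 and the cGAS-/- samples at 2.97 to 3.25.

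Whether the LPS effect itself differed between genotypes was tested with the interaction term. In limma, 0 of the 10 members passed at an adjusted p under 0.05, against 0.900% of all genes, and 6 passed at an unadjusted p under 0.05, against 11.1% of all genes. No other tool was run. The 6 were Cxcl1, Cxcl2, Cxcl3 and Cxcl5, with larger LPS effects in cGAS-/-, and Cxcl10 and Cxcl11, with smaller ones. The interaction was 3.22 for Cxcl3 (95% interval 1.54 to 4.91, limma adjusted p = 0.0911), 2.89 for Cxcl1 (adjusted p = 0.149), -2.08 for Cxcl11 (adjusted p = 0.169) and -0.85 for Cxcl10 (adjusted p = 0.305). For Cxcl9 it was -0.11, with a 95% interval of -1.33 to 1.10. With a pseudocount of 0.1 the term turned to 0.06 for Cxcl10 and to 0.86 for Cxcl9, neither of them called. When replicate 3 of WT LPS was left out 4 members passed, against 4.56% of all genes, which were Cxcl1 at 2.13 (adjusted p = 0.0195), Cxcl3 at 2.49 (adjusted p = 0.0116), Cxcl10 at -1.0 (adjusted p = 0.0123) and Cxcl11 at -2.71 (adjusted p = 7.32e-05). Cxcl1, Cxcl3 and Cxcl5 passed without replicate 2 of WT LPS, where 12.6% of all genes did, and Cxcl3 without replicate 1, where 0.993% did.

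In UT BMDMs, Ppbp was the 1 member called between genotypes, against 1.83% of all genes called and 1.58% called lower. It was at 9.62, 15.7 and 15.5 TPM in WT and at 1.18, 0.720 and 0.279 TPM in cGAS-/-, 18.7-fold lower by the means (log2 fold change -3.08, SE 0.45, limma adjusted p = 0.0044). With LPS it was at 10.1, 7.29 and 1.97 TPM in WT and at 0.0968, 1.09 and 0.401 TPM in cGAS-/-, 12.1-fold lower by the means and 25.9-fold lower without replicate 2 of cGAS-/- (log2 fold change -2.13, SE 0.45, adjusted p = 0.0366). All cGAS-/- samples lay below all WT samples in both treatments. The UT call was kept in every alternative fit that was run, and the call with LPS was lost in 16 of 22. Without replicate 3 of WT LPS the difference with LPS was -2.70 (adjusted p = 0.00101). Pf4, which lies next to Ppbp, was at 55.5 to 57.9 TPM in cGAS-/- and 74.1 to 82.1 TPM in WT, groups that did not overlap but differed by only -0.44 (adjusted p = 1).

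Of the platelet and megakaryocyte markers, Gp9 and Nrgn were lower together with Ppbp in cGAS-/- UT samples. Of 12 markers, 9 were listed and summed to 4.13 to 11.9 TPM in WT UT and to 0.908 to 2.14 TPM in cGAS-/- UT, and with LPS to 1.52 to 4.09 and 0.552 to 1.35 TPM. Gp9, a subunit of the platelet receptor for von Willebrand factor, was at 0.713 to 1.21 TPM in WT UT and listed at 0 in all 3 cGAS-/- UT samples. Nrgn, which held much of the sum, was at 1.47 to 7.26 TPM in WT UT and at 0 to 0.452 TPM in cGAS-/- UT. Both passed the filter through WT samples alone, so their being lower in cGAS-/- is no independent count. For Gp1ba and Tubb1 the log2 differences were -0.06 and -0.08 (limma adjusted p = 1 for both). Their part in the Ppbp result was not tested. Neutrophil markers summed to 159 to 232 TPM in WT UT and to 67.4 to 142 TPM in cGAS-/- UT, and Ngp, which reached the filter in all 12 samples, was lower by -3.34 (limma adjusted p = 0.00186). With LPS they summed to 59.7 to 374 TPM in WT and to 73.2 to 95.2 TPM in cGAS-/-, where Cxcl1, Cxcl2 and Cxcl3 were higher. B cell markers summed to 67.7 to 99.4 TPM in WT UT against 4.95 to 11.8 TPM in cGAS-/- UT, and to 30.3 to 40.4 against 2.98 to 8.09 TPM with LPS. Most of this was Igkc, an immunoglobulin light chain gene, at 62.8 to 97.0 TPM in WT UT and 3.33 to 10.1 TPM in cGAS-/- UT, while the other 6 markers listed summed to 2.39 to 4.93 and 1.61 to 2.03 TPM. Dendritic cell markers summed to 2.48 to 2.92 TPM in WT and 2.54 to 3.24 TPM in cGAS-/- with LPS, T and NK cell markers to under 1 TPM in every LPS sample, and stromal markers to 5.94 to 19.0 TPM in WT and 3.39 to 4.46 TPM in cGAS-/- with LPS. In UT samples, dendritic cell markers summed to 8.44 to 8.98 TPM in WT and 5.34 to 7.06 TPM in cGAS-/-. Stromal markers there summed to 10.3 to 14.0 and 3.33 to 4.89 TPM, and T and NK cell markers to 1.06 to 1.45 and 0.658 to 1.09 TPM. Their part in the chemokine differences was not tested.

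Of the other members in UT cells, Cxcl10 was lower in cGAS-/- in every sample, at 0.138 to 0.330 against 0.717 to 1.12 TPM, a log2 fold change of -0.59 that did not pass (limma adjusted p = 0.354) but passed without replicate 3 of WT LPS (adjusted p = 0.018). Cxcl5 and Cxcl9 also lay below WT in every cGAS-/- sample, with no UT sample above 0.308 TPM for Cxcl5 or 0.239 TPM for Cxcl9. In total the groups did not overlap at 5 members, against 30.5% of all genes. Cxcl1, Cxcl2, Cxcl3, Cxcl11 and Cxcl16 overlapped between genotypes, and the 95% interval of the Cxcl2 difference ran from -1.35 to 1.38.

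Among the receptors, 9 of 10 genes were listed, and only Cxcr4, the receptor of Cxcl12, passed the filter. Cxcr4 fell with LPS in both genotypes, from 119 to 126 TPM down to 10.2 to 24.1 TPM in WT and from 121 to 128 TPM down to between 5.2 and 7.22 TPM in cGAS-/-. The log2 fold changes were -2.81 (SE 0.29, limma adjusted p = 6.48e-05) and -4.10 (SE 0.29, adjusted p = 5.33e-06). With LPS it was lower in cGAS-/- by -1.25, just inside the threshold (adjusted p = 0.0497), and by -1.58 without replicate 3 of WT LPS (adjusted p = 1.86e-04). Cxcr2, the receptor of the neutrophil-attracting members, lay between 0.0813 and 0.519 TPM in every sample. Cxcr1 was listed at 0 in all samples but one, at 0.836 TPM in a WT LPS sample, and Cxcr5, Cxcr6, Ackr1, Ackr2, Ackr3 and Ackr4 stayed at or under 0.312 TPM. Cxcr3 was not analysed here. Of 5 further CXC ligands, all listed, only Cxcl14 was tested. Cxcl14 was higher in cGAS-/- UT (26.6 to 29.9 TPM) than in WT UT (9.97 to 11.5 TPM), by 1.33 (SE 0.25, adjusted p = 0.0189), and fell with LPS in both genotypes, with log2 fold changes of -1.72 and -2.44. It moved against the direction of the induced members in both LPS comparisons.

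On the interferon side of chemokine transcription, 12 of 20 genes were listed and tested, and 6 rose with LPS in each genotype, among them Ifnb1, Irf7 and Usp18, a brake on interferon signalling, against 4.31% of all genes called higher in WT and 4.76% in cGAS-/-. Ifnb1 was at most at 0.301 TPM in UT samples and passed the filter through LPS samples alone. Its rise with LPS was therefore close to given by the filter. In WT 2 of the 12 fell, which were Ifngr1 and Irf8, with log2 fold changes of -1.80 and -0.85 (limma adjusted p = 0.0477 and 0.0447), against 23.3% of all genes called lower, and in cGAS-/- 0 did. Their changes were -0.85 and -0.50 without replicate 3 of WT LPS, and both genes were called lower in cGAS-/- as well. Between genotypes with LPS 1 of the 12 was called, against 2.36% of all genes, and 4 without replicate 3 of WT LPS, against 8.28% of all genes. Ifnb1, interferon beta, was at 7.21 to 9.60 TPM in WT and at 2.58 to 3.42 TPM in cGAS-/- LPS samples, a log2 fold change of -1.20 (SE 0.18, limma adjusted p = 0.00597), and was listed at 0 in 2 of 3 WT UT and in all cGAS-/- UT samples. Irf7, the IRF that amplifies interferon, rose by 4.46 in WT and by 5.42 in cGAS-/- and was not called between genotypes with LPS, but was lower in cGAS-/- without replicate 3 of WT LPS (-0.79, limma adjusted p = 0.0299). The median genotype difference with LPS over the 12 was -0.14. On the NF-kB side, 15 of 20 genes were listed and tested. LPS raised 6 in WT and 6 in cGAS-/-, among them Nfkbia, the NF-kB inhibitor, by 1.87 and 2.73, and Irak3, a brake on Toll-like receptor signalling, by 2.03 and 3.43. Between genotypes with LPS limma called 0 of the 15, against 2.36% of all genes, and their median difference was 0.72, against 0.20 over all genes. When replicate 3 of WT LPS was left out, 2 were called, which were Irak3 and Nfkbia, both higher in cGAS-/-, and the median was 0.21, against 0.04 over all genes. Of 13 genes that process CXC chemokines or control the decay of their mRNA, 11 were listed and 10 tested. Mmp9, a protease that trims CXC chemokines, was at 2.84 to 4.09 TPM in WT UT and 0.465 to 0.766 TPM in cGAS-/- UT samples. With LPS it was at 47.6 to 51.8 TPM in cGAS-/- LPS and at 0.744 to 4.18 TPM in WT LPS samples, a log2 fold change of 3.82 (SE 0.36, adjusted p = 3.19e-04), and its interaction of 5.34 passed as well (adjusted p = 9.49e-04).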

How the data were processed

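RNA-seq of 12 BMDM samples was analysed from the table that the authors deposited. The submitters' notes and methods name fastp, STAR on GRCm39 and Kallisto. What the authors deposited is read here as TPM, averaged per symbol over its transcripts. No source names the unit, which was judged from the numbers themselves, and the depth is unknown. The filter required 1 TPM or more in 3 or more of 12 samples, with samples rescaled to 1000000 for that step alone. Limma 3.58.1 in R 4.3.3 was fitted to log2(TPM + 1) of all 12 samples, with a mean per condition and trended variances, and was checked on simulated data. The simulated samples had the same spread in every group, so this check does not cover groups that differ in spread. No count tool was run. Blastn 2.17.0 compared transcripts. Libraries were strand-specific per the labels, and the strand setting of the quantification is not given in the sources used here. Members, lists and the rule for named genes (all members, every receptor, and at most 3 called genes per list and comparison) were chosen with earlier results of these data known. Some genes of the lists are not reported here by name. Promoter sequences are from GRCm39, before each gene's canonical GENCODE start. Protein sequences were not used here.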

Additional observations from a re-analysis of the deposited data

How the results depend on the processing

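Fold changes are on the log2 scale and the cause of each shift was not tested. Of 1085 repeats of a single member's test under an alternative, 961 kept direction and side of the threshold, 59 lost the call, 38 gained one and 27 turned direction, none of the 27 being called under either fit. With only the samples compared, members called fell to 3 for LPS in WT and to 0 for genotype with LPS, and rose to 3 for genotype in UT, where sample weights also gave 3. The share of all genes called fell from 27.6% to 6.02% and from 2.36% to 0.0421% in the former pair and rose in UT from 1.83% to 10.4% (11.5% with weights), so the shifts in UT are not particular to the members. For genotype with LPS the count was 3 with a pseudocount of 0.1, 2 with no filter, and 2 with sample weights. The shares of all genes called were 1.37%, 0.725% and 2.49% in these settings. A pseudocount of 0.1 gave 2 for genotype in UT, against 0.774% of all genes. The interaction had 3 called with a pseudocount of 5 (1.72% of all genes) and 3 with quantile normalization (1.27%). It had 1 called with TMM factors (1.18%) and 1 with sample weights (2.46%). Leaving out 1 sample gave 6 to 7 for LPS in WT (16.5% to 48.7% of all genes). For LPS in cGAS-/- it gave 7 to 9 (8.58% to 30.8%), and for genotype in UT 1 to 2 (1.03% to 5.33%). For genotype with LPS it gave 1 to 7 (0.648% to 27.9%), and for the interaction 0 to 4 (0.353% to 12.6%). The stricter filter removed Cxcl5.

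The difference between classes was -2.48 for LPS in WT (-4.07 and -1.43 with pseudocounts of 0.1 and 5), 0.95 for LPS in cGAS-/- (-0.55 and 1.54), 3.64 for genotype with LPS (4.02 and 3.05) and 3.43 for the interaction (2.97 with a pseudocount of 5). The order of the classes in cGAS-/- with LPS turned with the lower pseudocount, and the genotype difference with LPS kept its sign under the settings run.

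Directions turned as follows. With TMM factors Pf4 with LPS in WT was 0.42, and with sample weights it was 0.22, while Cxcl16 was 0.13 for genotype with LPS and 0.0535 for the interaction. With a pseudocount of 0.1 the UT genotype difference was -0.0372 for Cxcl2 and -0.0211 for Cxcl11, and the interaction was 0.86 for Cxcl9 and 0.0626 for Cxcl10. With quantile normalization Cxcl3 in UT was 0.0387. Leaving out 1 sample gave -0.13 to 0.26 for Cxcl5 and -0.73 to 0.26 for Pf4 with LPS in WT, and -0.44 to 0.0223 for Ppbp with LPS in cGAS-/-. In UT it gave -0.17 to 0.41 for Cxcl1, -0.37 to 0.47 for Cxcl2, -0.27 to 0.26 for Cxcl3 and -0.0358 to 0.0207 for Cxcl11. With LPS between genotypes it gave -0.90 to 0.10 for Cxcl9, -0.52 to 0.11 for Cxcl16 and -0.0026 to 0.99 for Pf4, and for the interaction -0.69 to 0.31 for Cxcl9 and -0.59 to 0.0345 for Cxcl16.

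The replicate numbers did not pair the samples. Deviations of same-numbered samples correlated at -0.03 to 0.04, and in 6 of 18 same-numbered pairs between groups the sample correlated best with its own number. With the number as a replicate block, 7, 7, 1, 4 and 0 members were called in the 5 comparisons. Of all genes, 24.9%, 11.9%, 1.43%, 1.51% and 0.454% were called. Cxcl2 and Ppbp were no longer called between genotypes with LPS, where the share of all genes fell from 2.36% to 1.51%.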

Other observations

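Genes whose profile over the 12 samples was most like that of a member were ranked by the root-mean-square distance of log2(TPM + 1) after centring each gene, as a description over samples that share groups. Nearest to Cxcl2 was Ptgs2, which encodes cyclooxygenase-2, at a distance of 0.42, with mean levels of 0.75 and 9.30 TPM in WT UT and LPS and of 0.607 and 54.6 TPM in cGAS-/- UT and LPS. Cxcl3 and Cxcl1 followed, each at 0.46, whereas Cxcl5 had rank 660, at 1.87. Nearest to Cxcl10 were Slfn4 at 0.46, Slfn1 at 0.48 and Ifi205 at 0.49. Cxcl9 and Cxcl11 had ranks 51 and 52 from Cxcl10, at 1.32 and 1.33. Cxcl9 lay nearer to Cxcl2, at 1.22, than to Cxcl10. Slfn4 averaged 230 TPM in WT LPS and 83.0 TPM in cGAS-/- LPS, and Slfn1 417 and 162 TPM. Nearest to Cxcl16 were Tbc1d13, Dnajc1 and Abtb2, at 0.13 to 0.16, and nearest to Pf4 were Mrpl20, Ppa1 and Snx22, at 0.14 to 0.15.

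Within 300 kb of the cluster of Cxcl9, Cxcl10 and Cxcl11, 13 other genes were listed and 9 tested. One of them, U90926, was named after its values were seen. It moved with the neutrophil-attracting members rather than with its neighbours, at 25.0, 16.1 and 1.12 TPM in WT LPS and at 114, 82.9 and 91.3 TPM in cGAS-/- LPS. In UT samples it was at 0 to 0.252 TPM. It passed the filter through LPS samples alone, so its rise with LPS was close to given by the filter. Its log2 fold change was 3.01 with LPS in WT (SE 0.70, limma adjusted p = 0.01), 6.49 in cGAS-/- (adjusted p = 9.61e-05) and 3.30 between genotypes with LPS (adjusted p = 0.037). Its interaction of 3.48 did not pass (adjusted p = 0.177). When replicate 3 of WT LPS was left out, the log2 fold change was 4.12 with LPS in WT and 2.19 between genotypes with LPS (adjusted p = 1.72e-04), and the interaction was 2.37 and passed (adjusted p = 0.00131).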
